A study of Rattus norvegicus with 8 samples.

Results

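Reads of 6 genes of GABA signalling were examined in the rat hypothalamus: Gad1 and Gad2, which code for the enzymes that make GABA, Slc32a1, which codes for the vesicular GABA transporter, and Gabra2, Gabrb1 and Gabrb2, which code for subunits of the GABA-A receptor. The genes were chosen by symbol, and each polyadenylation site that the table assigns to one of these symbols was taken. This gave 6 of 12255 genes and 117 of 73922 sites. The libraries came from 8 adult male Long-Evans rats, 4 in a control group kept on standard chow and 4 in an obesity group with free access to a high fat diet, and the hypothalamus was collected after 36 days. The diets are given here as the labels state them. The article linked to the deposit describes another exposure, and the files do not tell which account is right. Fat supplied 0.51 kcal per g of the chow and 1.71 kcal per g of the high fat diet. All 8 libraries were made by WTTS-seq (whole transcriptome termini site sequencing), which counts the 3′ ends of polyadenylated RNA, so that 1 read stands for 1 captured end whatever the length of the transcript. Both groups carry the library numbers 1 to 4, and no label tells what libraries of one number have in common.

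GABA is the main inhibitory transmitter of the adult brain. Glutamate decarboxylase, in the forms coded by Gad1 and Gad2, makes it from glutamate, and the vesicular transporter loads it into synaptic vesicles. Released GABA opens GABA-A receptors, chloride channels built of alpha, beta and other subunits, and in the hypothalamus GABA neurons, among them the Agrp neurons of the arcuate nucleus, take part in the control of feeding.

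The table held between 1417531 and 1957726 reads per library, and its least abundant site had 30 reads over the 8 libraries. Sites without a read numbered 14788 in control library 1 and 10659 in obesity library 1. In the other libraries they numbered 4062 to 6622. The part of this difference in the results was not tested. The hypothalamic peptide and transcription factor genes chosen as a check on the tissue all had a site, 10 of 10. Their sum, most of it from Avp, was 1067 to 1506 CPM (counts per 1000000 reads of a library) in control and 870 to 1115 CPM in obesity, and was lower in obesity in 4 of 4 pairs of a number. Of the 10 genes 2 were lower (Avp and Oxt) and 2 higher (Sim1 and Crh) in obesity at an unadjusted p under 0.05 by edgeR, and none passed an adjusted p of 0.1. The glutamate transporter genes Slc17a7 and Slc17a8 had no site, and Slc17a6 stood at 1.42 to 8.12 CPM. Of the 4 pituitary markers, Prl had no site and the other 3 summed to 17.9 to 56.0 CPM in control and 6.13 to 127 CPM in obesity. Gh1 stood at 70.6 CPM in obesity library 2 and at no more than 0.813 CPM in any other, Lhb likewise was highest there at 47.1 CPM, and Cga was highest in control library 1, at 50.3 CPM, and had 8.93 CPM in obesity library 2. The choroid plexus gene Ttr stood at 98.0 CPM in obesity library 4 and at no more than 1.52 CPM elsewhere. Of the 6 striatal markers, Drd1 and Adora2a had no site and the other 4 summed to 204 to 231 CPM in control and 141 to 255 CPM in obesity. The 4 thalamic markers summed to 129 to 219 CPM in control and 75.1 to 242 CPM in obesity. The part of all these markers in the results was not tested.

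Obesity and control libraries were compared first on the reads of each gene, summed over its sites on the strand that carried most of them. None of the 6 genes passed an adjusted p of 0.1 in edgeR's quasi-likelihood test, as was true of every gene tested, 0% of 12255. None was at an unadjusted p under 0.05 either, against 5.12% of all genes. With the library number as a block, 0.277% of all genes passed and again no GABA gene, and 10.9% of all genes but no GABA gene had an unadjusted p under 0.05. The 2 groups overlapped in all 6 genes, while they did not overlap in 3.45% of all genes. In whole tissue, fewer cells of a type and less RNA per cell cannot be told apart.

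Gad1, the gene of the larger glutamate decarboxylase, GAD67, was the least abundant of the set. It gave 45.3, 62.2, 14.6 and 38.0 CPM in the control libraries, taken by number, and 29.3, 60.1, 27.5 and 45.6 CPM in those of the obesity group. Library 2 was the highest and library 3 the lowest in both groups, and the groups overlapped almost wholly. The means were 40.0 ± 19.7 CPM in control and 40.6 ± 15.3 CPM in obesity (SD, n = 4 each). The log2 fold change was 0.01 with a standard error (SE) of 0.40 and a 95% interval from -0.83 to 0.85, so that a fold change anywhere between 0.562 and 1.80 lay within it.

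Gad1 reads ended at 3 sites on the plus strand of chromosome 3 (Rnor_6.0). The middle site, at position 56898054, carried 76.3% of them. The most 3′ site, at 56902135, lay 4.08 kb further and carried 15.7%. The middle site had 37, 86, 10 and 37 reads in control and 31, 56, 30 and 58 in obesity, so that the order of the libraries in Gad1 was largely the order at this site. With 18 to 93 Gad1 reads per library, the counts allow only wide intervals.

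Gad2, the gene of the smaller decarboxylase, GAD65, differed far more between libraries than between diets. It gave 94.9, 66.9, 247 and 170 CPM in the control libraries, taken by number, and 75.1, 78.7, 336 and 159 CPM in those of the obesity group. Library 3 was the highest of its group and library 4 the next in both groups, with libraries 1 and 2 low in both. The highest library exceeded the lowest 3.69-fold in control and 4.48-fold in obesity, while the obesity mean was 1.12-fold the control mean (145 ± 81.0 CPM in control and 162 ± 122 CPM in obesity, SD, n = 4). The log2 fold change was 0.17 (SE 0.55), with a 95% interval from -1.05 to 1.396. The sign turned when a single library was left out: the log2 fold change was -0.07 without control library 2 and -0.46 without obesity library 3. With the library number as a block it was 0.07, and the interval narrowed to between -0.30 and 0.44.

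**Figure D1:**
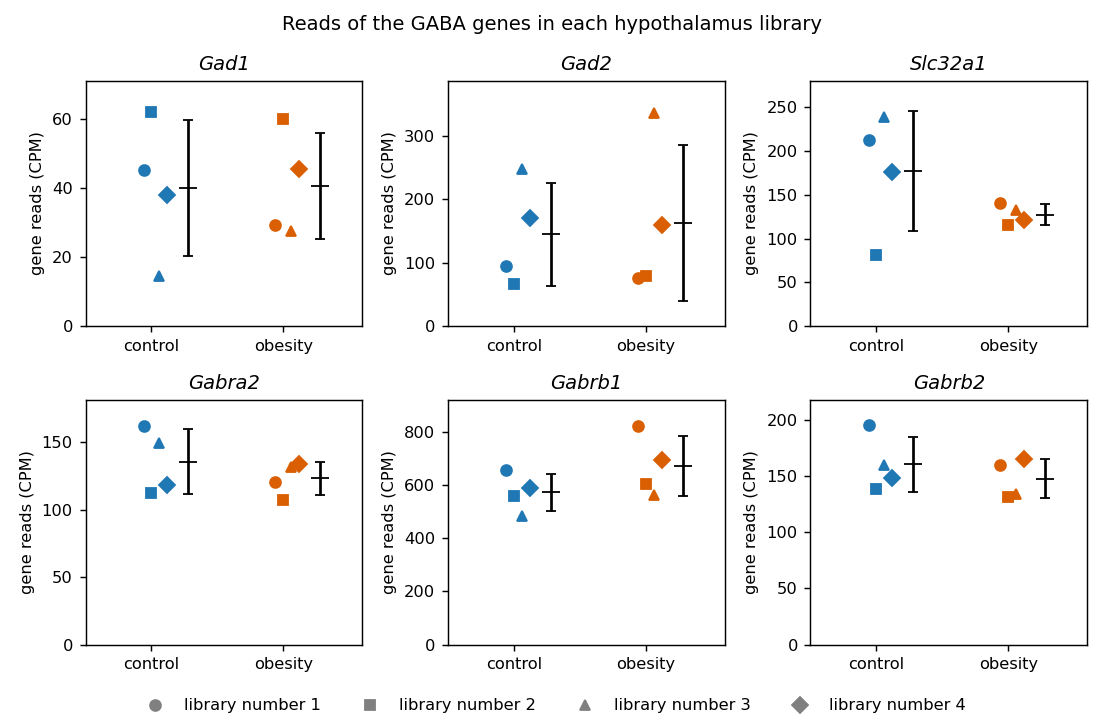
Reads of each gene in CPM (y axis, from 0) in the 4 control libraries (blue) and the 4 obesity libraries (orange), with the mean and SD in black and the marker shape giving the library number. Control and obesity points overlap in every panel, and the triangles of number 3 are lowest for Gad1 and highest for Gad2 in both groups.

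The last Gad2 site, at position 89236700 on the plus strand of chromosome 17, carried 71.4% of the reads. It had 63, 53, 275 and 157 reads in control and 43, 50, 486 and 135 in obesity. Both number 3 libraries were the highest here, and the share of Gad2 reads that ended at this site moved with them, at 90.5% and 84.7% in number 3 against 47.0% and 43.0% in number 1. The other 9 sites lay up to 37.9 kb upstream and each carried far fewer reads. Beyond the last site, 3 sites that the table gives to no gene lay within 5 kb. In the number 2 libraries they had 24, 20 and 23 reads in control and 16, 14 and 31 in obesity, beside 53 and 50 at the last site. Adding them to Gad2 gave a log2 fold change of 0.14 (adjusted p = 0.991 by edgeR), again without a call. The Gad2 values and ratios given here leave them out.

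Since the libraries of one number resembled each other, the effect of the number was tested in the fit with the block, a test added after the values of the GABA genes had been seen. Gad2 differed between the numbers (edgeR quasi-likelihood F = 27.5, adjusted p = 7.17e-06) and ranked 40 of 12255 genes by this test. It was the only 1 of the 6 genes that passed, and 10.7% of all genes did. Leaving out both libraries numbered 3 kept Gad2 past the threshold, at an adjusted p of 0.0104 by edgeR. Adding the unassigned sites beyond its last site lowered F to 19.3 (adjusted p = 0.000102 by edgeR). Gad1 did not pass, with an adjusted p of 0.113 by edgeR, although it did without both libraries numbered 1, at 0.0279. For Gad1 the number took 80.6% of the sum of squares of log2 CPM over the 8 libraries and for Gad2 96.4%, against a median of 54.0% over the 8302 genes with a mean of at least 10 CPM, while the diet took 0.877% and 0.145%.

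The library number was also tested at each site. Of the 117 sites, 8 differed between the library numbers at an adjusted p under 0.1 by edgeR, beside 8.66% of all sites. These were 1 in Gad1, 2 in Gad2 and 5 in Gabrb1. Gabrb1 as a gene did not pass this test, with an adjusted p of 0.316 by edgeR. The last Gad2 site had the lowest adjusted p of the 8 sites, 1.59e-06 by edgeR. The most used Gad1 site had 0.0733. A Gabrb1 site at 38737575 on chromosome 14 had 54, 1, 26 and 14 reads in control and 105, 5, 37 and 14 in obesity, and was highest in number 1 and lowest in number 2 of both groups (adjusted p = 0.000343 by edgeR). What separates the numbered libraries was not tested.

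The ratio of Gad1 to Gad2 combined the opposite orders of the 2 genes. By number, it was 0.478, 0.930, 0.0592 and 0.223 in the control group and 0.390, 0.763, 0.0819 and 0.286 in the obesity group. The order by number was the same in both groups. On the sites assigned to each gene, Gad1 was close to the level of Gad2 in number 2 and far below it in number 3. The unassigned sites beyond Gad2 were not counted here. Over all 8 libraries the ratio spanned 15.7-fold, while the group means were 0.423 ± 0.380 in control and 0.380 ± 0.285 in obesity (SD, n = 4). Across the 8 libraries the log2 CPM values of Gad1 and Gad2 had a Pearson r of -0.68, a description of libraries that share their numbers in pairs.

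**Figure D2:**
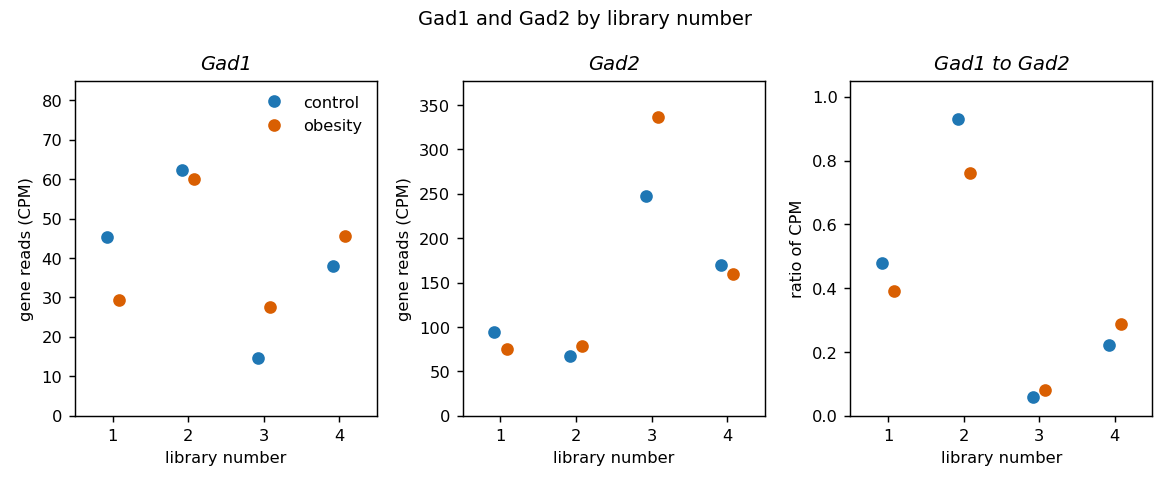
Gad1 (left) and Gad2 (middle) in CPM and their ratio (right) on the y axes, by library number on the x axis, for control (blue) and obesity (orange). The ratio lies at 0.930 and 0.763 for number 2 and at 0.0592 and 0.0819 for number 3, and its order by number is the same in both groups.

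Slc32a1, the gene of the transporter that fills vesicles with GABA, had the largest difference in size between the diets of the 6 genes. It gave 213, 81.6, 239 and 176 CPM in the control libraries, taken by number, and 141, 115, 132 and 121 CPM in those of the obesity group. Control libraries 1, 3 and 4 lay above all 4 obesity libraries, while control library 2 lay below all of them. The means were 178 ± 68.9 CPM in control and 128 ± 11.6 CPM in obesity (SD, n = 4). The log2 fold change was thus -0.48 (SE 0.27, 95% interval from -1.05 to 0.10, unadjusted p = 0.101, adjusted p = 0.923 by edgeR).

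The result for Slc32a1 varied with the libraries that were left out. Without control library 2 the log2 fold change was -0.72, with an unadjusted p of 0.00591 and an adjusted p of 0.983 by edgeR. With the number as a block it was -0.39 (unadjusted p = 0.0547, adjusted p = 0.468 by edgeR). Without both libraries numbered 2 in the fit with the block it was -0.66 (adjusted p = 0.0326 by edgeR). In that fit 4.59% of all genes passed, so that the call stood among many. Leaving out the libraries numbered 3 brought the log2 fold change nearer to none. It was -0.23 in the fit with the block without both of them (unadjusted p = 0.310, adjusted p = 0.920 by edgeR). Without control library 3 alone and with no block it was -0.30 (unadjusted p = 0.323 by edgeR). Obesity library 2, which held the Gh1 reads, gave a log2 fold change of -0.43 when left out alone. The summed hypothalamic markers were lower in obesity in 4 of 4 pairs and Slc32a1 in 3 of 4, and the part of the former in the latter was not tested.

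Slc32a1 had 2 sites, 0.434 kb apart on the plus strand of chromosome 3, and the last, at 155107854, carried 97.9% of the reads. This last site had 298, 121, 290 and 229 reads in control and 182, 135, 219 and 174 in obesity. Control libraries had 98.9% ± 0.254 of the gene's reads here and obesity libraries 96.6% ± 1.13 (SD, n = 4), and the groups did not overlap, at 98.6% to 99.2% against 95.1% to 97.8%. The difference rests on the upstream site at 155107420, with 3, 1, 4 and 3 reads in control and 6, 7, 7 and 4 in obesity. Of the 6 genes 2 had a share of the most 3′ site that did not overlap between the groups, Slc32a1 and Gabrb2, against 3.05% of the 7802 genes with more than 1 site and a read in every library. The edgeR test of site use within Slc32a1 gave an unadjusted Simes p of 0.372 and an adjusted p of 1.00.

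Gabra2 codes for the alpha 2 subunit, found among other places at synapses on axon initial segments. It gave 162, 112, 150 and 118 CPM in the control libraries, taken by number, and 120, 107, 131 and 133 CPM in those of the obesity group. The obesity libraries lay within the range of control but for library 2, the lowest of the 8. The means were 135 ± 24.2 CPM and 123 ± 12.04 CPM (SD, n = 4), with a log2 fold change of -0.14 (SE 0.21) and a 95% interval from -0.59 to 0.31.

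The 16 Gabra2 sites were spread over 126 kb of the plus strand of chromosome 14. The most used, at 39799981, was the fourth from the 3′ end and carried 12.9% of the reads, and 6 sites were needed to hold 50% or more of them. It had 20, 22, 40 and 28 reads in control and 8, 20, 28 and 21 in obesity. The most 3′ site, at 39802684, carried 7.04%. A site without a gene 0.980 kb beyond it had 65 reads in control library 1 and at most 17 in each other library. Adding it to the gene moved the log2 fold change to -0.27, and without control library 1 the change was -0.040 on the gene's own sites.

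Gabrb1, the gene of the beta 1 subunit, was the most abundant of the set and ranked 190 of 12255 genes by reads. It gave 656, 560, 486 and 590 CPM in the control libraries, taken by number, and 822, 606, 565 and 697 CPM in those of the obesity group. The obesity library was the higher of its number in 4 of 4 pairs, yet the groups overlapped, since obesity libraries 2 and 3 lay below control library 1. The means were 573 ± 70.4 CPM in control and 673 ± 114 CPM in obesity (SD, n = 4). The log2 fold change was 0.23 (SE 0.19, 95% interval from -0.17 to 0.63), with an adjusted p of 0.942 by edgeR, and the unadjusted p was 0.237 without the block and 0.0979 with it. Without obesity library 1 the log2 fold change was 0.12.

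Most Gabrb1 reads ended far inside the gene. On the minus strand of chromosome 14 it had 64 sites over 480 kb, more than all but 73 of 12255 genes, and 10 sites held 50% or more of the reads. The most used site, at 38636643, was the sixth from the 3′ end and carried 11.5%, and the most 3′ site, at 38631192, carried 0.502%. Over 10 kb upstream of the most 3′ site lay 56 of the sites with 83.2% ± 4.48 of the reads (SD, 8 libraries). Whether reads there were primed on stretches of A inside the RNA was not tested. The plus strand held 2 more sites under the symbol Gabrb1, and these did not enter the gene sum. One of them, at 38686904, had 31 reads in obesity library 1 and at most 1 read in each other library.

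Gabrb2 codes for the beta 2 subunit, which is widespread in the adult brain. It gave 196, 138, 160 and 149 CPM in the control libraries, taken by number, and 160, 131, 135 and 165 CPM in those of the obesity group. The groups overlapped, with control library 1 above the rest. The means were 161 ± 24.8 CPM and 148 ± 17.3 CPM (SD, n = 4), and the log2 fold change was -0.12 (SE 0.21, 95% interval from -0.56 to 0.32). Without control library 1 it was -0.012.

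The 20 Gabrb2 sites lay over 216 kb of the plus strand of chromosome 10. The most used site, at 28192283, was the second from the 3′ end and carried 18.3% of the reads, with 33, 34, 55 and 52 reads in control and 34, 23, 40 and 44 in obesity. The last site, at 28193054, lay 0.771 kb further. It had 9, 4, 16 and 7 reads in control and 0, 3, 1 and 2 in obesity, and was the only 1 of the 117 sites whose CPM did not overlap between the groups, against 3.11% of all sites. Its log2 fold change was -2.62 (SE 1.02), with an unadjusted p of 0.0222 and an adjusted p of 1.00 by edgeR. With 42 reads in all over the 8 libraries, this site lies near the least abundant of the table.

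**Figure D3:**
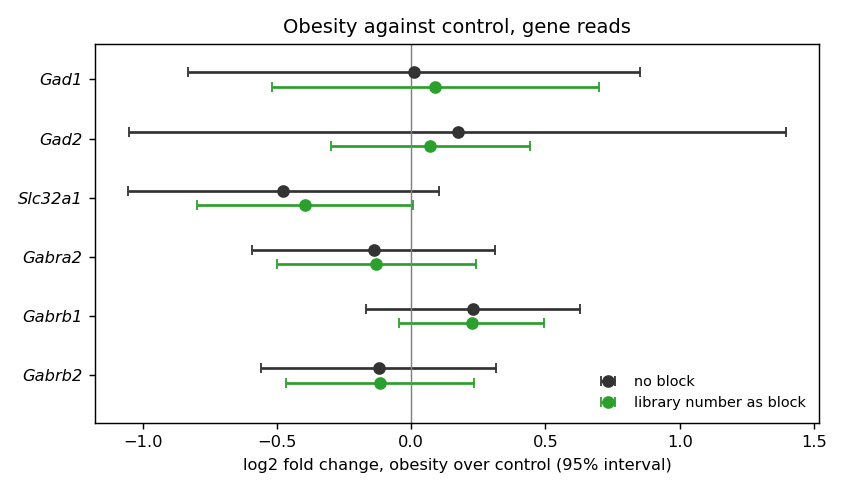
Log2 fold change of obesity over control (x axis) for each gene, with 95% intervals, without a block (black) and with the library number as a block (green). All 12 intervals include 0, the one for Gad2 narrows most with the block, and the blocked interval for Slc32a1 reaches from -0.80 to 0.01.

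The order of the 6 genes by mean reads over the 8 libraries was Gabrb1 (623 ± 103 CPM), Gabrb2 (154 ± 20.9), Gad2 (154 ± 96.5), Slc32a1 (153 ± 53.0), Gabra2 (129 ± 18.9) and Gad1 (40.3 ± 16.4, SD, n = 8 each). Gabrb1 and Gad1 stood apart from the rest, since the lowest Gabrb1 value of 486 CPM exceeded the highest value of any other gene and the highest Gad1 value of 62.2 CPM lay below the lowest value of each. The values of the 4 genes between them overlapped, although Gabrb2 exceeded Gabra2 in every library. Differences between genes were not tested. The ratio of Gabrb1 to Gabrb2 was 3.36, 4.04, 3.04 and 3.96 in control and 5.14, 4.61, 4.20 and 4.21 in obesity. All 4 obesity libraries lay above all 4 control libraries in this ratio, with means of 3.60 ± 0.485 and 4.54 ± 0.444 (SD, n = 4). It was the 1 of the 15 ratios among the 6 genes whose groups did not overlap. For single genes the groups did not overlap in 3.45% of all genes. The share over ratios of all genes is not given, and the ratio was not tested. Only sites with 1% or more of a gene's reads brought Gabrb1 down to 475 CPM and left it the most abundant. For the 6 genes together the reads made up 0.101% to 0.141% of all gene reads of a library.

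At the level of sites, 0 of 117 passed an adjusted p of 0.1 by edgeR, beside 0.00135% of all sites, and with the library number as a block again none, beside 0.00541%. At an unadjusted p under 0.05 there were 4 sites, 3 in Gabrb1 and 1 in Gabrb2, where 3.14% of all sites had such a p. The 3 in Gabrb1 include the plus strand site at 38686904, which is not in the gene sum. It had 31 reads in obesity library 1 and at most 1 read in each other library. With the block 5 sites had such a p, where 6.09% of all sites did. The count was 7 without obesity library 2, 1 without obesity library 3 and 1 with filterByExpr. None of the 4 lay under 0.01. Of all 117 sites, 67 had a positive and 50 a negative log2 fold change.

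A further test asked how the sites of a gene were used, that is, whether the reads of a gene were divided among its sites in another way after the high fat diet. No GABA gene passed an adjusted p of 0.1 (edgeR diffSpliceDGE with Simes' method), beside 0% of the 7996 genes tested, and with the library number as a block none did, beside 0.0125%. The second most used Gabrb1 site was singled out after its values had been seen. It lies at 38641898, the ninth from the 3′ end, and had 125, 92, 51 and 91 reads in control and 96, 46, 35 and 44 in obesity. Obesity was the lower in all 4 pairs of a number, and the groups overlapped. Control libraries had 11.2% ± 2.06 of Gabrb1 reads at this site and obesity libraries 5.71% ± 2.30 (SD, n = 4). The log2 fold change of its reads was -0.78 (SE 0.40), with an unadjusted p of 0.0740, or 0.00814 with the block, where the adjusted p was 0.588 by edgeR.

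**Figure D4:**
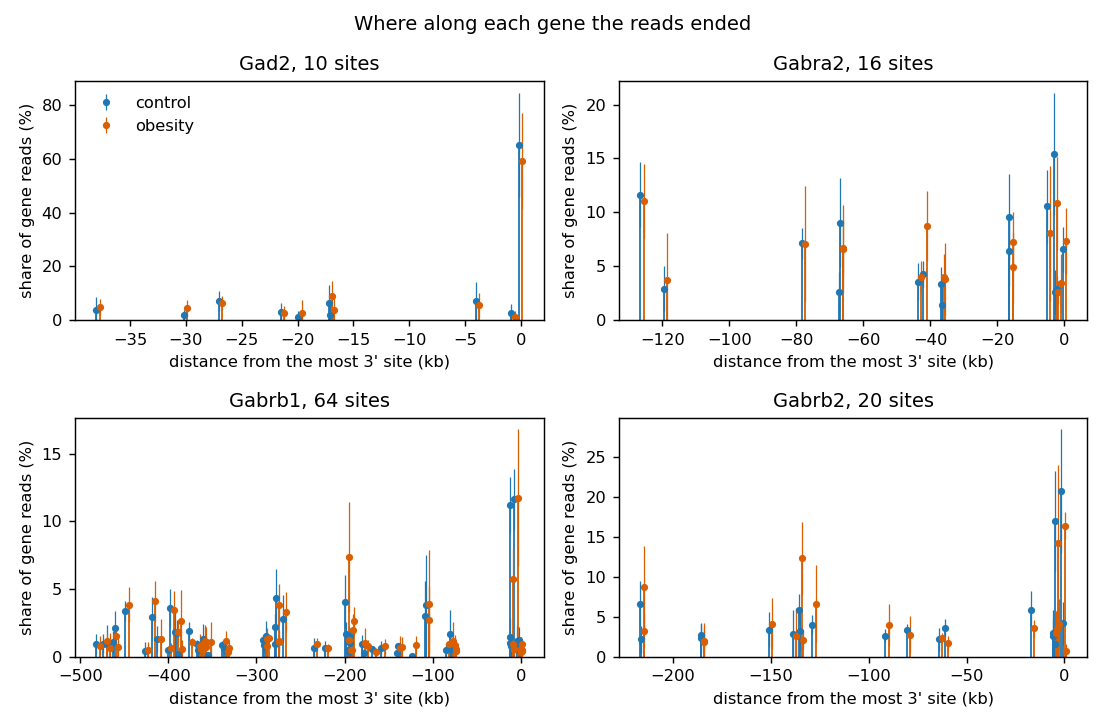
Share of a gene's reads (y axis, percent) at each site by its distance in kb from the most 3′ site of the gene (x axis, with 0 at the most 3′ site), as mean and SD of the 4 control (blue) and 4 obesity (orange) libraries. Gad2 reads gather at the last site, while those of Gabrb1, Gabra2 and Gabrb2 are spread over the gene, and the bars of the groups overlap at most sites.

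The table gives each site a transcript, and Gabra2 and Gabrb1 were the 2 of the 6 genes with more than 1 transcript. The 10 most 3′ sites of Gabrb1, over 10.8 kb, belong to 1 transcript and the other 54, which begin 64.8 kb upstream of these, to another. By number, the first transcript held 26.7%, 32.7%, 31.8% and 29.6% of Gabrb1 reads in the control group and 18.7%, 24.1%, 25.8% and 20.4% in the obesity group. All obesity libraries lay below all control libraries, with a difference between the means of -7.95 percentage points (30.2% ± 2.69 and 22.3% ± 3.26, SD, n = 4). An exact two-sided permutation test gave p = 0.0286, the smallest that 4 against 4 libraries allow, or 0.0571 adjusted over the 2 genes. Groups that do not overlap fix this p at that value, so it adds nothing to the separation itself. An exact permutation of the groups within the 4 pairs of a number gave p = 0.125, the smallest that 4 pairs allow. This comparison was added after the table had been seen, and the groups did not overlap in 3.21% of the 1122 genes with more than 1 transcript and a mean of at least 10 CPM. Of these 36 genes 26 were lower in obesity, the median difference over all 1122 genes was -1.26 percentage points, and Gabrb1 ranked 223 from the most negative. Without the ninth site from the 3′ end the difference was -3.87 percentage points.

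For Gabra2 the 4 most 3′ sites belong to 1 transcript and held 24.9%, 22.6%, 34.8% and 27.7% of its reads in control and 10.6%, 31.1%, 29.5% and 25.5% in obesity. The groups overlapped, and the exact permutation test gave p = 0.657 (27.5% ± 5.28 and 24.2% ± 9.32, SD, n = 4). Obesity library 1 lay below the rest, and without it the difference turned from -3.34 to 1.17 percentage points. Another measure was taken over the libraries as a whole. The share of all gene reads that ended over 10 kb upstream of the most 3′ site of their gene was 36.3%, 37.9%, 31.4% and 37.4% in control and 43.0%, 36.0%, 41.6% and 44.6% in obesity (35.7% ± 2.99 and 41.3% ± 3.76, SD, n = 4). Here the groups overlapped, since the obesity value of 36.0% lay within the control range. For Gabrb1 alone, reads that far upstream made up 77.6% to 87.5% of the gene's reads across control libraries. Across obesity libraries they made up 78.3% to 90.3%, so that Gabrb1 overlapped on this measure. The 10 kb cut and the transcripts divide Gabrb1 at different places. Its sites at 38641898 and 38641980 lie 10.7 and 10.8 kb upstream and count as far upstream here. Both belong to the transcript of the most 3′ site, and the site at 38641898 alone carried 8.32% of Gabrb1 reads. The overlap on this measure thus does not bear directly on the transcript share. The part of the library-wide share in the Gabrb1 transcript share was not tested.

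**Figure D5:**
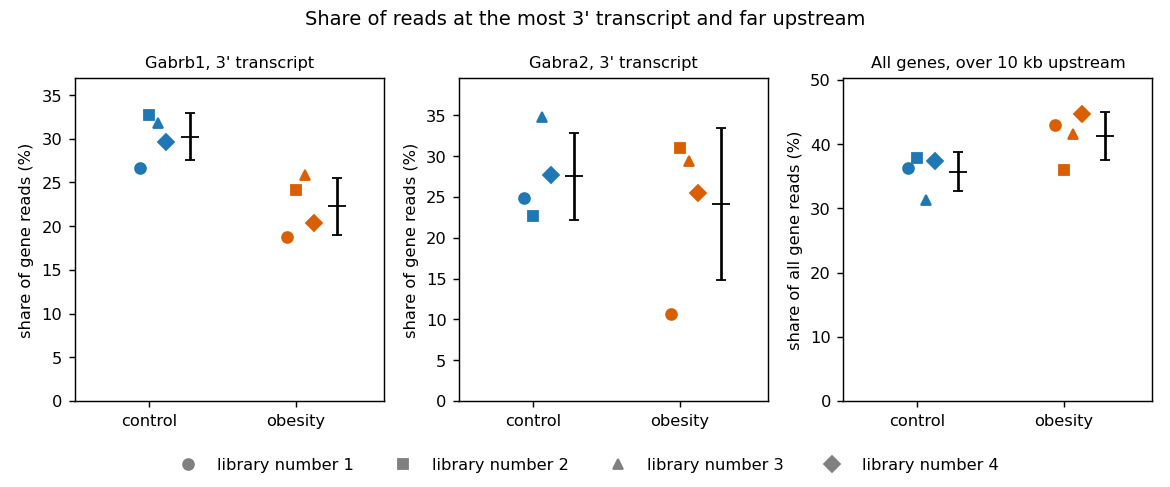
Share of reads in percent (y axes, from 0) at the transcript of the most 3′ site for Gabrb1 (left) and Gabra2 (middle), and share of all gene reads over 10 kb upstream of the most 3′ site (right), in control (blue) and obesity (orange), with mean and SD in black and the marker shape giving the library number. For Gabrb1 the control points lie between 26.7% and 32.7% and the obesity points between 18.7% and 25.8%, and in the right panel 3 of the 4 obesity points lie above all control points.

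Of 39 further genes of GABA metabolism, receptors and synapses, 31 had a site in the table. None passed an adjusted p of 0.1 by edgeR with or without the block. At an unadjusted p under 0.05 there was 1, higher in obesity, where 5.12% of all genes had such a p, and in the fit with the block 5 were higher and 3 were lower, where 10.9% of all genes had one. Without the block, leaving out 1 library moved the count from 1 to between 0 (without obesity library 4) and 6 (without obesity library 2), and to 2 without control library 1 or obesity library 1. The median log2 fold change of the 31 was 0.08, of the 6 genes above -0.05 and of all genes 0.00. The genes without a site were the transporters Slc6a12 and Slc6a13 and the subunits Gabra6, Gabre, Gabrp, Gabrr1, Gabrr2 and Gabrr3.

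Abat, the gene of GABA transaminase, which breaks GABA down, was the 1 gene with such a p. Its means were 102 ± 25.9 CPM in control and 166 ± 57.8 CPM in obesity (SD, n = 4), higher in 4 of 4 pairs, with a log2 fold change of 0.71 (SE 0.27), an unadjusted p of 0.0176 and an adjusted p of 0.921 by edgeR. With the block its adjusted p was 0.146 by edgeR. Slc38a1, the gene of a glutamine transporter, had 159 ± 20.1 CPM in control and 117 ± 42.0 CPM in obesity and was lower in obesity in 4 of 4 pairs. Of the 6 genes of synthesis, breakdown and uptake with a site, 4 had a positive and 2 a negative log2 fold change.

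Among the other GABA-A subunits, 3 of the 10 with a site had a positive log2 fold change and 7 a negative one. Gabrg3, for the gamma 3 subunit, was the most abundant, with 428 ± 60.7 CPM in control and 541 ± 89.8 CPM in obesity (SD, n = 4), higher in 4 of 4 pairs. It had 58 sites, near the number of Gabrb1.

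The GABA-B receptor is a slower receptor that acts through G proteins. Its subunit gene Gabbr1 had more reads than any of the 6 genes or the rest of the list, with 1791 ± 310 CPM in control and 1449 ± 510 CPM in obesity, lower in 4 of 4 pairs. Gabbr2, for its partner subunit, had 248 ± 88.7 and 273 ± 87.6 CPM. Of the auxiliary subunit genes, Kctd16 had 312 ± 17.2 and 395 ± 38.8 CPM, higher in 4 of 4 pairs, and Kctd8 had 90.0 ± 37.0 and 103 ± 18.2 CPM. With the block, Gabbr1 had an adjusted p of 0.285 and Kctd16 of 0.371 by edgeR.

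Genes of the inhibitory synapse and of receptor trafficking lay in the same range. Iqsec3, for a protein of inhibitory synapses, had 457 ± 104 and 573 ± 168 CPM, and Gphn, for the scaffold protein gephyrin, had 264 ± 27.6 and 304 ± 34.4 CPM. Lhfpl4, which helps to hold GABA-A receptors at synapses, had 247 ± 18.9 and 305 ± 46.5 CPM, higher in 4 of 4 pairs. Gabarapl1, related to the GABA-A receptor associated protein, had 348 ± 58.1 and 263 ± 120 CPM. Of these 10 genes 6 had a positive and 4 a negative log2 fold change, and none passed an adjusted p of 0.1 by edgeR.

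The genes most like each of the 6 were found by the Pearson r of log2 CPM over the 8 libraries, among 8302 genes with a mean of at least 10 CPM. For Gad1 they were Sp2 (r = 0.96), Atad2b (0.93) and Hcfc1 (0.92), and for Gad2 they were March7 (0.96), Sez6l (0.94) and Arhgef37 (0.94). For Slc32a1 they were Cacna2d2 (0.94), Mmp24 (0.92) and Capn7 (0.92). None of these is one of the other GABA genes examined. With 8 libraries that share numbers in pairs, such values are a description of the libraries.

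For Gabra2 the most like were Dpysl4 (0.94), Snn (0.93) and Tcaim (0.92), and for Gabrb2 they were LOC682225 (0.95), Rhof (0.93) and Hs6st1 (0.93). Gabrb1 was most like Ralyl (0.98), Csmd1 (0.97) and Prpf6 (0.97), and 52 genes had an r over 0.9 with it, against 5 to 19 for the other 5 genes. Ralyl and Csmd1 had 102 and 126 sites over 792 and 1693 kb, a large number of sites over a long gene as in Gabrb1. Prpf6 did not share this, with 8 sites over 64.5 kb, and the site numbers of the rest of the 52 genes are not given here. Among the 6 genes themselves, r was highest between Gabra2 and Gabrb2 (0.80) and between Gabra2 and Slc32a1 (0.74), and lowest between Gad1 and Slc32a1 (-0.68).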

How the data were processed

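The deposited table gives raw counts of reads at each polyadenylation site for 8 libraries. Per the labels, total RNA was fragmented, enriched for poly(A) and amplified by PCR, and the submitters' processing notes name Bowtie2 2.2.3 and the build Rnor_6.0. How sites were called and assigned to genes is not given in the sources used here. The members and lists were chosen with earlier results of these data known.

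Positions are printed as the table gives them. One line without a site was left out, and 273 sites with a mark in place of a symbol were treated as having no gene. Counts were summed per gene over the strand with most reads. All genes or sites entered edgeR 4.0.16 (R 4.3.3; TMM, robust quasi-likelihood F test, Benjamini-Hochberg adjustment over all features, no filter, threshold 0.1). The SE is the absolute log2 fold change divided by the square root of F. CPM use TMM library sizes and log2 CPM a prior count of 1. Site use was tested with diffSpliceDGE. DESeq2 1.42.0, its size factors, filterByExpr, summed strands, the block and omitted libraries were tried. PCR reads are not independent molecules, so depth limits cover counting error only.

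Genes were named by a fixed rule: the 6 members, the most used and the most 3′ site of each, sites at p under 0.01, the 3 most correlated genes per member, and genes of the GABA list at p under 0.05 or among the 4 most abundant of their group. Some genes that the rule names are not reported here. Same-numbered libraries deviated together (r from 0.357 to 0.504 for same numbers, -0.263 to -0.0213 otherwise), with all 4 pairs over 0.1, which meets the criterion used for pairing. The main fits have no block, since no label tells what a number shares, and the block was fitted as an alternative. Unless the block is named, comparisons of obesity with control come from the fits without it. The scripts were tested on simulated data.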

Additional observations from a re-analysis of the deposited data

Results flagged for a closer look

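In 42 checks for a library far from the other 3 of its group, by Dixon's criterion, 1 library stood out, where chance gives about 1 in 20. The last Gabra2 site, at 39802684, had 12.4 CPM in control library 1 and 5.75 to 6.61 CPM in the other control libraries. The unassigned site beyond it was also highest in control library 1, with 65 reads.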

How the results depend on the processing

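The 6 log2 fold changes of the genes were each recomputed under 18 alternatives, and 1 of them brought a call: with the library number as a block and without both libraries numbered 2, Slc32a1 had -0.66, so that 1 gene passed where 0 did otherwise. The replicate block alone changed no call of a gene, a site or site use, and the log2 fold changes with it were 0.09 (Gad1), 0.07 (Gad2), -0.39 (Slc32a1), -0.13 (Gabra2), 0.23 (Gabrb1) and -0.12 (Gabrb2). Gabra2, Gabrb1, Gabrb2 and Slc32a1 kept their direction under all 18, and with single libraries left out ranged from -0.22 to -0.040, from 0.12 to 0.31 and from -0.19 to -0.012 for Gabra2, Gabrb1 and Gabrb2. Near 0, the direction turned. With single libraries left out, Gad1 ranged from -0.26 to 0.31 and Gad2 from -0.46 to 0.56, and in the block without both libraries numbered 3 they had -0.13 and -0.070. Slc32a1 ranged from -0.72 to -0.30 with single libraries left out. Of the sites, that at 56902135 (Gad1) had 0.031 with DESeq2 size factors and 0.026 by DESeq2's Wald test, and that at 89236700 (Gad2) had -0.12 with the block. With single libraries left out, the log2 fold change ranged from -0.27 to 0.56 at 56898054 and from -0.58 to 0.24 at 56902135 (Gad1), from -1.04 to 0.75 at 89236700 (Gad2), from -0.22 to 0.30 at 39802684 (Gabra2), and from -0.071 to 0.32 at 38636643 and from -0.91 to 0.11 at 38631192 (Gabrb1). The Gabra2 share of reads at its most 3′ transcript ranged from -5.64 to 1.17 percentage points. Sites with 1% or more of the gene's reads gave Gabrb1 a mean of 475 CPM, since most of its sites are left out. The causes of the other changes were not tested. Counts of 18 to 93 reads per library limit Gad1, and most sites have fewer.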
